A study of Mus musculus with 16 samples.

Results

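The 10 genes described here carry peptides to the cell surface on MHC class I molecules. They are the class I heavy chains H2-K1 and H2-D1, the light chain B2m, the peptide transporter genes Tap1 and Tap2, the loading factor Tapbp, the immunoproteasome subunits Psmb8, Psmb9 and Psmb10, and the class I transcriptional activator Nlrc5. Members were taken by name from the platform annotation, which assigned 15 of the 25697 probes of the array, and 10 of its 16593 gene symbols, to them. The measurements came from TUBO, a single mouse mammary carcinoma cell line derived from the BALB-neuT strain, whose transgene is an activated rat ErbB2. Cells were transfected with Lipofectamine and 200 nM of a hairpin inhibitor, either one against miR-135b (anti-miR-135b) or a negative control hairpin that the labels call scrambled, so both arms received a lipid reagent and an RNA hairpin. RNA was taken after 24 h (2 anti-miR-135b samples and 2 controls), 48 h (3 and 3) and 72 h (3 and 3), and each of the 16 samples was hybridised to 1 Illumina mouse bead array. Samples are called here by the numbers in their labels. Nothing in the labels states that samples of a group came from separate cultures, so the p-values below measure the spread between these samples, which may be technical.

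MHC class I molecules show fragments of the proteins made inside a cell to CD8 T cells. The proteasome cuts the proteins, and after exposure to interferon its constitutive catalytic subunits are replaced by those encoded by Psmb8, Psmb9 and Psmb10. The TAP1 and TAP2 proteins pump the peptides into the endoplasmic reticulum, tapasin (Tapbp) bridges the pump to empty class I heavy chains, and B2m holds the loaded heavy chain in shape. NLRC5 raises transcription of most of these genes, and tumour cells often carry them at low levels. In the RefSeq gene table (GRCm38.p6), 7 of the 10 genes lie on chromosome 17, in and around the MHC, 2 (Psmb10 and Nlrc5) on chromosome 8, and B2m on chromosome 2.

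Upstream sequence of RefSeq (GRCm38.p6) was available for 8 of the 10 genes, not Tap2 or Nlrc5. It covered 250 bases before and 50 bases after the gene's start. The 3 stretches printed here, all in the plus orientation, are the interval that Tap1 and Psmb9 share between their facing starts (chr17:34187331-34187555), because these neighbours are described together below, and the bases upstream of B2m (chr2:122147437-122147686) and H2-D1 (chr17:35262844-35263093), whose arrays varied together. Capitals mark a match to an interferon-stimulated response element (ISRE) in B2m and to an NF-kappaB site in H2-D1.
Psmb9-Tap1 interval: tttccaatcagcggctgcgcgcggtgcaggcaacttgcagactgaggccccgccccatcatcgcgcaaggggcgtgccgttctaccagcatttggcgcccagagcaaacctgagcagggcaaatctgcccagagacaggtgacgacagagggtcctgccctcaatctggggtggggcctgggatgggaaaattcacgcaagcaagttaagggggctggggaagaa
B2m upstream: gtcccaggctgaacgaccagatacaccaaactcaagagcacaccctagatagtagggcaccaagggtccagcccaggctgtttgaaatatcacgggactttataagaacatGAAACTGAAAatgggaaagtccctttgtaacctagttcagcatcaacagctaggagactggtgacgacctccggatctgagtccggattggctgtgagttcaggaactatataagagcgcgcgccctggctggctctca
H2-D1 upstream: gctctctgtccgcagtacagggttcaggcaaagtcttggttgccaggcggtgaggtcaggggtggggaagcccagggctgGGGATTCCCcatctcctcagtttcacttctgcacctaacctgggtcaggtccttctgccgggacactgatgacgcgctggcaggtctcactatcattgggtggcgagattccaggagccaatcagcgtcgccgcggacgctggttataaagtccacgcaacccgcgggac
The ISRE was searched on both strands as GAAA, any 2 bases and GAAA. These letters matched in the B2m window from -139 to -130 and in no other member's window, and 3.44% of the 32851 windows in the table held them. Of NF-kappaB sites only the form GGGATTCCC was searched, in B2m as elsewhere. It matched in the windows of H2-D1 and H2-K1, against 0.353% of all windows. None of these matches overlapped another motif searched. The gamma-activated site TTCNNNGAA matched in Psmb8 from -97 to -89 and in 8.3% of all windows. The 225 bases between Psmb9 and Tap1 held no match to these 3 motifs as searched. They did hold the shorter letters CCAAT and TGACG (a CRE half-site), which also stood in 37.4% and 20.8% of all windows. Variants of the motifs were not searched, so a window without a match, that of H2-D1 for the ISRE included, may still hold such a site. A match of letters is a description of the reference strain, and no letters were read from TUBO cells.

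Intensities are given as log2 values after background correction and quantile normalisation across the 16 arrays, which makes values of 1 probe comparable between arrays but not values of different probes. Array medians before normalisation lay between 281.2 and 346.8, and upper quartiles between 375.8 and 529.4. At 48 h the upper quartiles were 375.8, 465.6 and 420.3 in anti-miR-135b samples 13, 14 and 15. In controls 4, 5 and 6 they were 529.4, 455.7 and 484.7. There were 2 chips of 8 arrays. One held all 48 h samples and the 24 h controls, and the other all 72 h samples and the 24 h anti-miR-135b samples. The inhibitor is thus compared inside a chip at 48 h and 72 h, whereas at 24 h it cannot be told apart from the chip. At 48 h and 72 h it cannot be told apart from array position, since the controls came before the anti-miR-135b samples on the chip. At 24 h both arms took the last 2 positions of their chips. Of the epithelial marker genes with a probe, 8 of 9 lay above the median of all probes, among them Krt8 and Krt18, with Krt19 below. Of 12 leukocyte markers 3 lay above it (Cd14, Ms4a1 and Nkg7, with Ptprc and Cd3e below), and so did 3 of 14 fibroblast and endothelial markers. Cd14 stood at the 99.8th percentile of all probes, and Ms4a1 and Nkg7 at the 56th. The mean level of the 12 leukocyte markers was 7.57 to 7.69 in anti-miR-135b arrays and 7.41 to 7.57 in control arrays at 48 h, and 7.50 to 7.56 and 7.50 to 7.69 at 72 h. That of the epithelial markers was 11.3 to 11.8 and 11.2 to 11.9 at 48 h, and 11.4 to 11.8 and 11.5 to 11.7 at 72 h. Their part in the results below was not tested. In RNA from whole cultures, fewer cells with a transcript and less of it per cell cannot be told apart.

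The members were measured with unequal certainty. A probe was tested when its mean over the 16 arrays exceeded the log2 median over all probes, 7.10, and 13 of the 15 member probes, of 9 of the 10 genes, passed. The Nlrc5 probe had a mean of 6.39, at the 3.54th percentile of all probes, and lay above its array's median on 0 of 16 arrays. Another B2m probe (mean 6.68) lay at the 15.1th percentile, above the array median on 0 of 16 arrays, and was also not tested. Psmb9 passed the filter closely: it lay above the array median on 6 of 16 arrays, H2-D1 on 11 of 16 and Psmb8 on 13 of 16. Tap1, at the 65.3th percentile, lay above it on 14 of 16 arrays. It lay below on the 72 h controls 7 (intensity 301.4, array median 303.1) and 8 (291.5, array median 320.6). The B2m probe stood at the 98.9th percentile and the H2-K1, Tap2 and Psmb10 probes at the 84.6th, 79.4th and 84.5th, above the array median on every array. Where a gene has several probes, the brightest stands for it and the others are named as such. Probe sequences were not used here. Whether probes of H2-K1 and H2-D1 also bind transcripts of related class I genes, or carry mismatches to the BALB/c alleles, was not tested.

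No member passed the test in any inhibitor comparison. At 48 h 0 of 13 tested member probes reached an adjusted p below 0.05 in limma with Benjamini-Hochberg adjustment, with 0% of the 12848 probes tested called there and 6.24% at an unadjusted p below 0.05. At 72 h the member count was again 0, with 0% of all probes called and 7.13% at the unadjusted level. The mean of the 48 h and 72 h differences gave 0 member probes, with 0% called in all and 7.84% at the unadjusted level. The differences were mostly above 0. In the mean of both times, 8 of 9 genes had a higher average in anti-miR-135b cells by their brightest probe, with a median difference of 0.23, whereas 49.3% of all tested probes were above 0 and their median was -0.0031. At 48 h 8 of 9 genes were above 0 (median 0.19; 48.9% of all probes), and at 72 h 7 of 9 (median 0.16; 47.7% of all probes). These counts describe the list and carry no test, and the genes varied together, so the signs are not independent of each other. The counts also depended on single samples. Fits without a single sample had 5 to 8 of 9 genes above 0 at 48 h. Their medians ran from 0.0070 (without control 4) to 0.39 (without sample 13). At 72 h they had 5 to 7 of 9, with medians from 0.034 (without sample 17) to 0.45 (without sample 16). In the mean of both times they had 7 or 8 of 9, with medians from 0.12 to 0.32. When arrays were instead scaled to a common median, the median of all probes moved to -0.27 at 48 h and 0.08 at 72 h, and 4 of 9 genes at 48 h and 8 of 9 at 72 h were above 0. Relative to the shifted median of all probes, 6 of 9 lay higher at 48 h and 7 of 9 at 72 h.

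**Figure D1:**
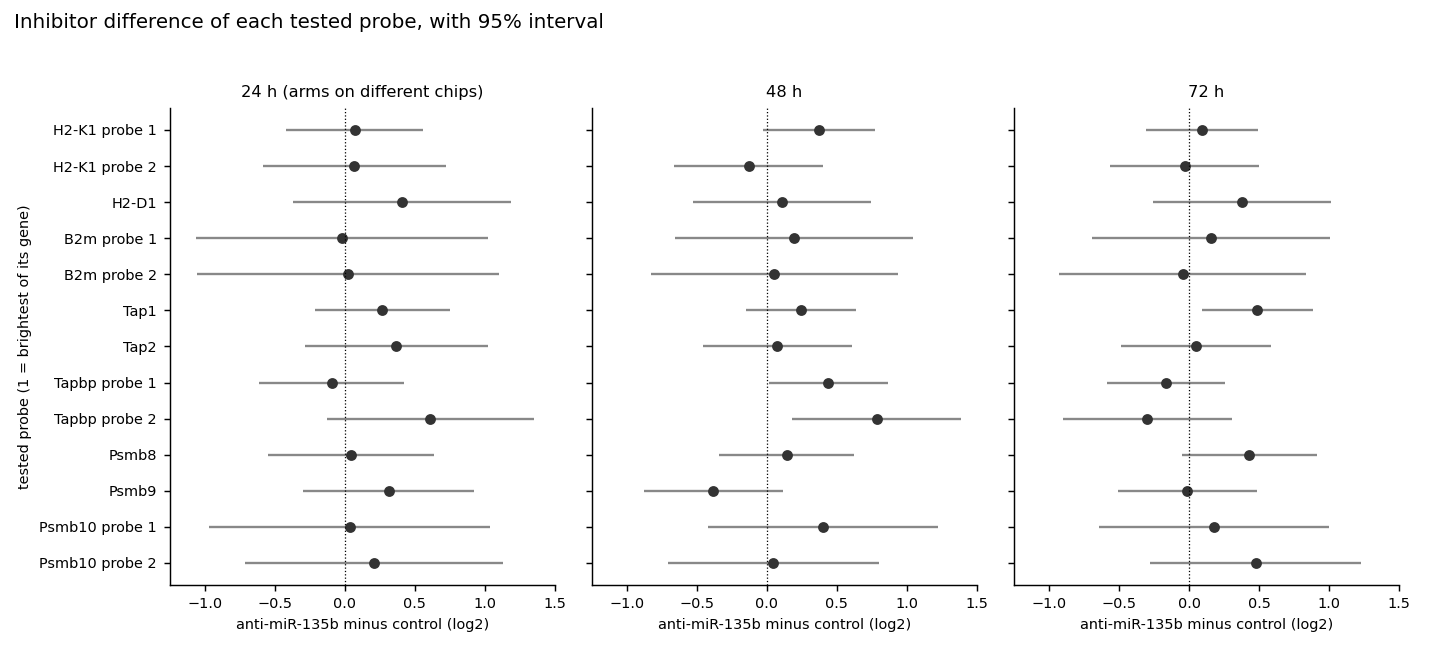
Difference between anti-miR-135b and control (log2, horizontal axis) for each of the 13 tested member probes at 24 h, 48 h and 72 h; points are limma estimates and bars their 95% intervals, not adjusted for multiple probes. Most points lie right of 0. The interval lies above 0 for both Tapbp probes at 48 h and for Tap1 at 72 h, and no adjusted p passed 0.05.

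Tap1, the first subunit of the peptide transporter, had the smallest p-value among the members in the mean of 48 h and 72 h. At 72 h the anti-miR-135b samples 16, 17 and 18 had log2 intensities of 7.58, 7.74 and 7.62, against 7.16, 6.86 and 7.45 in control samples 7, 8 and 9. After normalisation every anti-miR-135b array was above every control array at that time. Before it the arms overlapped, with an intensity of 353.9 in control 9 against 335.5 and 350.8 in samples 16 and 18. At 48 h Tap1 had 7.32, 7.66 and 7.75 in anti-miR-135b samples 13, 14 and 15, against 7.28, 7.42 and 7.31 in control samples 4, 5 and 6. Samples 14 and 15 were above all controls there, and sample 13 lay within their range. At 24 h it had 7.96 and 7.89 under anti-miR-135b and 7.57 and 7.74 in controls, also without overlap but on different chips.

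The difference of Tap1 was 0.49 (SE 0.19, 1.40-fold) at 72 h with a limma adjusted p of 0.605, and 0.24 (SE 0.19) at 48 h with an adjusted p of 0.854. In the mean of both times it was 0.37 (SE 0.13, 95% interval 0.09 to 0.65), with a limma adjusted p of 0.51 over all probes. An exact permutation test that rearranged samples between arms within each time (400 arrangements, two-sided) gave p = 0.01 for Tap1, where 0.005 is the smallest value possible. That p is not adjusted for the 10 genes tested this way, and the other 9 had exact permutation p-values of 0.085 (H2-K1) to 0.735 (Tap2). The test of whether the difference changed with time gave 0.25 (SE 0.27) for 72 h minus 48 h. Leaving out any 1 of the 12 samples kept the mean difference between 0.29 and 0.44. Group means of Tap1 were 7.92 ± 0.05 (SD, n = 2) under anti-miR-135b and 7.66 ± 0.12 (n = 2) in controls at 24 h, 7.58 ± 0.23 and 7.33 ± 0.08 at 48 h (n = 3 each), and 7.65 ± 0.09 and 7.16 ± 0.30 at 72 h (n = 3 each). The lowest group was thus the 72 h control, and the 3 groups with means of 7.58 to 7.66 overlapped one another.

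**Figure D2:**
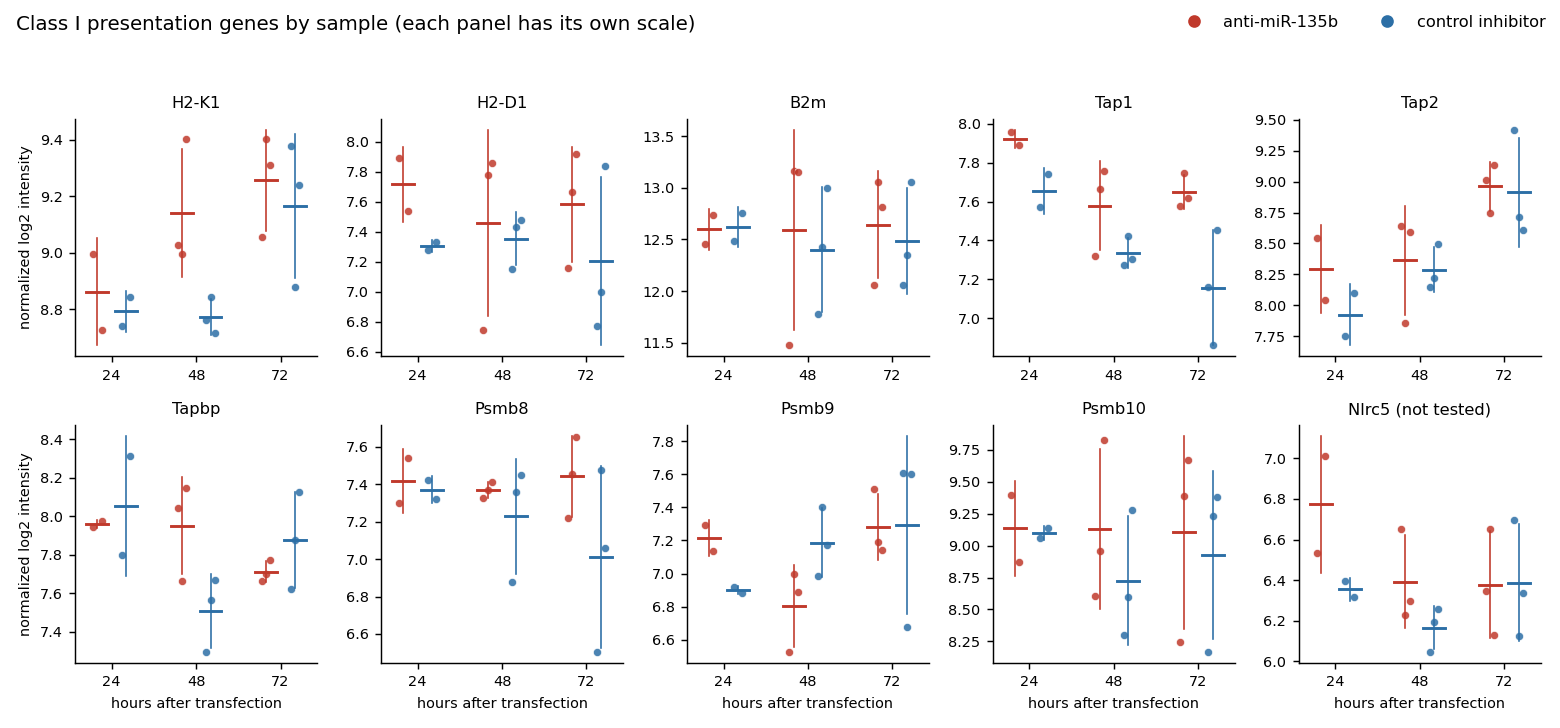
Normalised log2 intensity (vertical axis, each panel with its own scale) of the brightest probe of each member against hours after transfection; points are arrays, horizontal bars group means and vertical bars 1 SD, with anti-miR-135b left of control at each time. Tap1 arrays separate by inhibitor at 72 h (7.58 to 7.74 against 6.86 to 7.45), H2-K1 arrays at 48 h (8.99 to 9.40 against 8.71 to 8.84), and the Nlrc5 probe is below the filter.

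H2-K1 encodes a classical heavy chain that presents peptides to CD8 T cells. At 48 h its brightest probe had 9.03, 8.99 and 9.40 in anti-miR-135b samples 13, 14 and 15, against 8.76, 8.84 and 8.71 in control samples 4, 5 and 6. The arms did not overlap. At 72 h the values were 9.06, 9.40 and 9.31 under anti-miR-135b and 9.38, 8.88 and 9.24 in controls, where the arms overlapped widely. The 48 h difference was 0.37 (SE 0.19, 1.29-fold; limma adjusted p 0.792) and the 72 h difference 0.09 (SE 0.19; limma adjusted p 0.949), and the change between these differences, -0.28 (SE 0.27), did not pass either. Under scaling to a common median the 48 h difference was -0.07, or 0.21 relative to the shifted median of all probes. A second H2-K1 probe gave -0.13 (SE 0.25) at 48 h and -0.03 (SE 0.25) at 72 h, and the 2 probes had a Pearson correlation of -0.12 over the 16 arrays, so they did not track each other.

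H2-K1 was the single member probe whose arms did not overlap at 48 h and Tap1 the single one at 72 h. Both were higher under anti-miR-135b. Among all tested probes 4.68% were higher without overlap at 48 h and 8% at 72 h, so 1 of 13 in each case is near the background. None of the member probes was lower without overlap (5.5% of all probes at 48 h and 7.06% at 72 h; in either direction 10.2% and 15.1%). Over both times together 0 of 13 member probes were separated, against 0.996% of all probes in either direction.

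H2-D1, the other classical heavy chain measured, had 6.74, 7.78 and 7.86 in anti-miR-135b samples 13, 14 and 15 at 48 h, against 7.15, 7.44 and 7.48 in controls. Sample 13 was below every control and the other two were above every control. At 72 h it had 7.16, 7.67 and 7.92 under anti-miR-135b and 6.77, 7.00 and 7.84 in controls, again overlapping. The differences were 0.11 (SE 0.30) at 48 h and 0.38 (SE 0.30) at 72 h, with limma adjusted p-values of 0.976 and 0.811.

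B2m, the light chain, showed the same split among the 48 h samples. It had 11.47, 13.16 and 13.15 in anti-miR-135b samples 13, 14 and 15, against 11.78, 12.42 and 12.99 in controls 4, 5 and 6. Sample 13 was the lowest of the 16 arrays in this B2m probe and in H2-D1. At 72 h B2m had 12.06, 13.05 and 12.81 under anti-miR-135b, against 12.06, 12.34 and 13.05 in controls, and the arms spanned the same range. The difference was 0.19 (SE 0.40) at 48 h and 0.16 (SE 0.40) at 72 h, each smaller than its standard error. Without sample 13 the 48 h difference of B2m reached 0.75, and leaving out single samples of either arm otherwise took it down to -0.12. The second tested B2m probe gave 0.05 and -0.04 and followed the first closely (r = 0.92 over 16 arrays). It did not repeat the split at 48 h, with 11.24, 12.73 and 12.68 under anti-miR-135b and 11.20, 12.26 and 13.03 in controls. For the brightest probe, the 95% interval of the 48 h difference ran from -0.66 to 1.04. Under scaling to a common median it was -0.44, or -0.16 relative to the shifted median of all probes.

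Tap2, the second subunit of the transporter, gave no difference that passed. It had 8.64, 7.86 and 8.59 under anti-miR-135b at 48 h, against 8.15, 8.22 and 8.49 in controls, and 9.01, 8.74 and 9.13 at 72 h, against 9.42, 8.71 and 8.61. Sample 14 was low at 48 h and control 7 was high at 72 h, so the arms overlapped at both times. The differences were 0.08 (SE 0.25, 95% interval -0.46 to 0.61) and 0.05 (SE 0.25, -0.49 to 0.58), and the first was -0.29 under scaling to a common median. Between the 2 transporter subunits, the difference in the mean of both times was 0.37 for Tap1 and 0.06 (SE 0.18) for Tap2, and the gap between genes was not tested.

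Tapbp encodes tapasin and has 2 tested probes, both annotated to RefSeq transcripts of the gene. The brighter probe had 8.04, 7.66 and 8.14 in anti-miR-135b samples at 48 h, against 7.30, 7.57 and 7.67 in controls, where sample 14 just fell into the control range. At 72 h it had 7.66, 7.70 and 7.77 under anti-miR-135b and 7.62, 7.88 and 8.13 in controls. The difference was 0.44 (SE 0.20, 1.36-fold; limma adjusted p 0.788) at 48 h and -0.16 (SE 0.20; limma adjusted p 0.896) at 72 h.

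The second Tapbp probe repeated this pattern with larger values. It had 8.15, 7.36 and 8.28 under anti-miR-135b at 48 h and 7.39, 7.41 and 6.63 in controls, so sample 14 again lay apart from the other two. At 72 h it had 6.71, 7.50 and 7.55 under anti-miR-135b, against 7.26, 7.72 and 7.66 in controls. The difference was 0.79 (SE 0.29, 1.72-fold; limma adjusted p 0.748) at 48 h and -0.30 (SE 0.29; limma adjusted p 0.855) at 72 h. The change between the 2 differences was -1.08 (SE 0.41, unadjusted p 0.016, limma adjusted p 0.852) for this probe and -0.60 (SE 0.28, unadjusted p 0.0484, limma adjusted p 0.852) for the brighter one. In this comparison of 72 h with 48 h 0 of 13 member probes passed, with 0% of all probes called and 5.5% at the unadjusted level. The 2 probes correlated at 0.54 over the 16 arrays and at 0.20 after group means were taken off, so their shared pattern lay mainly in the group means.

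The immunoproteasome subunits gave no common direction at 48 h. Psmb8, which replaces the constitutive subunit Psmb5, had 7.33, 7.37 and 7.41 in anti-miR-135b samples at 48 h, against 6.88, 7.36 and 7.45 in controls. At 72 h it had 7.22, 7.46 and 7.65, against 6.50, 7.47 and 7.06, and control 7 was the lowest array. The differences were 0.14 (SE 0.23) and 0.43 (SE 0.23), with limma adjusted p-values of 0.955 and 0.721.

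Psmb9 replaces Psmb6. It had 6.53, 7.00 and 6.89 under anti-miR-135b at 48 h and 6.99, 7.40 and 7.17 in controls, where sample 14 lay just inside the control range. At 72 h the values were 7.51, 7.19 and 7.14, against 7.61, 6.68 and 7.60. The differences were -0.38 (SE 0.24; limma adjusted p 0.829) and -0.01 (SE 0.24). With quantile normalisation Psmb9 was the only one of the 9 tested genes with a lower average under anti-miR-135b at 48 h and in the mean of both times (-0.20, SE 0.17), whereas under scaling to a common median H2-K1, B2m, Tap2 and Psmb10 were also lower at 48 h and Tap2 in the mean. The probe is dim, close to the filter.

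Psmb10 replaces Psmb7 and lies outside the MHC. It had 8.60, 8.96 and 9.82 under anti-miR-135b at 48 h, against 8.30, 8.60 and 9.28 in controls, and 8.25, 9.39 and 9.67 at 72 h, against 8.17, 9.23 and 9.38. The spread within each arm was over 1 log2 unit at 72 h and exceeded the differences of 0.40 (SE 0.39) at 48 h and 0.18 (SE 0.39) at 72 h. The 48 h difference was -0.01 under scaling to a common median. The second Psmb10 probe gave 0.05 and 0.48.

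The untested Nlrc5 probe had 6.65, 6.23 and 6.30 in anti-miR-135b samples at 48 h, against 6.05, 6.20 and 6.26 in controls, and 6.35, 6.65 and 6.13 at 72 h, against 6.70, 6.13 and 6.34. The arms overlapped at both times, and the differences were 0.23 (SE 0.22) and -0.01 (SE 0.22).

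At 24 h the members were not called either, with 0% of all probes called by limma and 4.06% at an unadjusted p below 0.05. The brightest probes of 7 of 9 genes were above 0 (median 0.07; 49.1% of all probes). H2-D1 had 7.89 and 7.54 under anti-miR-135b and 7.28 and 7.34 in controls. Psmb9 had 7.29 and 7.14 under anti-miR-135b and 6.92 and 6.88 in controls. With Tap1 and the second Tapbp probe, whose values were 8.48 and 8.19 against 7.93 and 7.52, 4 of 13 member probes were higher without overlap. The brighter Tapbp probe gave -0.09 (SE 0.25) at 24 h, with overlap. With 2 arrays per arm 16.4% of all probes were higher without overlap (32.9% in either direction), and these arms lay on different chips. B2m at 24 h had 12.46 and 12.74 under anti-miR-135b and 12.48 and 12.75 in controls, a difference of -0.02 (SE 0.50).

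Time after transfection was compared within each arm on a single chip. In anti-miR-135b cells 1025 of 12848 probes (7.98%) passed between 72 h and 24 h (23.1% at an unadjusted p below 0.05), and 1 of 13 member probes did. This was the second Tapbp probe, which fell by 1.08 on the log2 scale (SE 0.32, limma adjusted p 0.0461), with 6.71, 7.50 and 7.55 at 72 h against 8.48 and 8.19 at 24 h. The call was marginal: leaving out any 1 of the 5 samples ended it, with differences from -1.23 to -0.81 and a lowest limma adjusted p of 0.0519. The brighter Tapbp probe gave -0.25 (SE 0.22; limma adjusted p 0.57). Without sample 12 at 24 h the count over all probes was 25, and without sample 16, 17, 18 or 11 it was 441, 677, 665 or 474.

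Tap2 had 9.01, 8.74 and 9.13 in anti-miR-135b cells at 72 h, against 8.54 and 8.04 at 24 h, without overlap. The difference was 0.67 (SE 0.28, 1.59-fold) and did not pass (unadjusted p 0.0302, limma adjusted p 0.16). Group means of Tap2 over 24, 48 and 72 h were 8.29 ± 0.36, 8.36 ± 0.44 and 8.96 ± 0.20 under anti-miR-135b and 7.92 ± 0.25, 8.29 ± 0.18 and 8.91 ± 0.44 in controls (SD, n = 2, 3 and 3), so the 72 h mean was the highest in both arms. The control arm's 72 h samples lay on another chip than its earlier ones, so that change was not tested. The brightest H2-K1 probe was likewise separated, with 9.06, 9.40 and 9.31 at 72 h and 9.00 and 8.73 at 24 h (0.39, SE 0.21, limma adjusted p 0.285). The second H2-K1 probe gave -0.15 (SE 0.28), with overlap. In all 5 of 13 member probes were separated in this comparison, 2 higher (H2-K1, Tap2; 22.2% of all probes) and 3 lower (Tap1 and both Tapbp probes; 21.9%), against 44.1% of all probes in either direction.

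In control cells 119 of 12848 probes (0.926%) passed between 48 h and 24 h and 0 of 13 member probes, with 12.4% of all probes at an unadjusted p below 0.05. The member arrays were separated for 5 of 13 probes, 2 higher (16.1% of all probes) and 3 lower (12.7%), against 28.8% of all probes in either direction. Tap2 and Psmb9 were higher at 48 h, with differences of 0.36 (SE 0.28) and 0.29 (SE 0.26). Tap1 (-0.32, SE 0.21) and the Tapbp probes (-0.54, SE 0.22, limma adjusted p 0.314, and -0.58, SE 0.32) were lower. The brighter Tapbp probe had 7.30, 7.57 and 7.67 at 48 h and 7.80 and 8.31 at 24 h in these cells. In both time comparisons the 24 h arrays took the last positions of their chip, so time cannot be told apart from position.

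**Figure D3:**
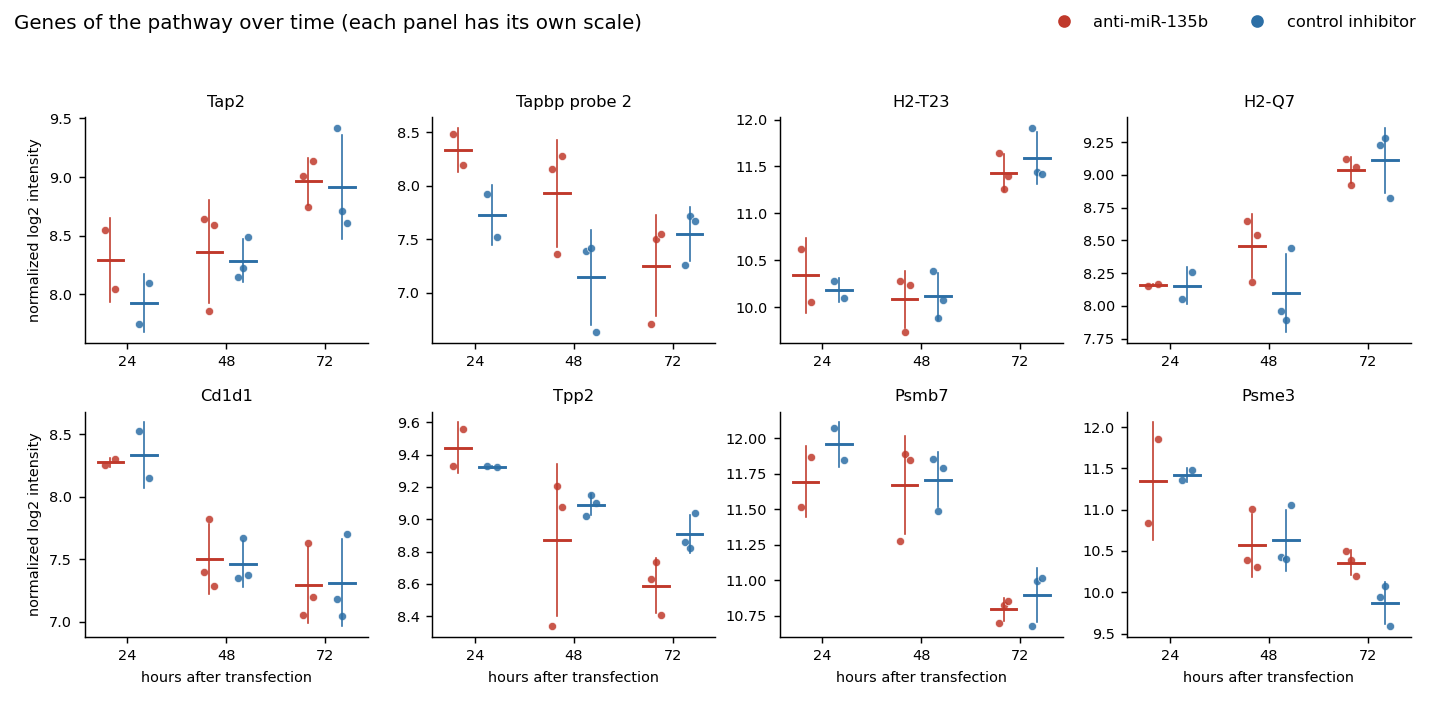
Normalised log2 intensity (vertical axis, each panel with its own scale) against hours after transfection for Tap2, the second Tapbp probe and the 6 related genes that passed between 72 h and 24 h in anti-miR-135b cells; points are arrays, horizontal bars group means and vertical bars 1 SD. H2-T23 and H2-Q7 are highest and Psmb7 lowest at 72 h in both arms, and the second Tapbp probe has its lowest anti-miR-135b mean (7.25) at 72 h. The 72 h controls lay on another chip than the earlier controls, so time cannot be told apart from chip there. The 48 h anti-miR-135b samples lay on another chip than those at 24 h and 72 h.

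The genes around the pathway were examined in 6 lists. None of their tested genes passed in any inhibitor comparison. Those tested were 7 of 20 listed class I-like chains, 9 of 12 trimming and loading partners and 8 of 9 other proteasome genes. With them were 15 of 20 regulators of class I transcription, 7 of 10 interferon receptor and signalling genes, and 1 of 8 class II genes. Among the class I-like chains in the mean of 48 h and 72 h, H2-Q1 had a difference of -0.34 (SE 0.15; limma adjusted p 0.607) and H2-Q5 one of 0.46 (SE 0.22; limma adjusted p 0.646). For the regulators the smallest p-values belonged to Ezh2, the methyltransferase of Polycomb complex 2 that can silence class I genes (-0.53, SE 0.19; limma adjusted p 0.519), to Rfxap, a subunit of the RFX factor at class I and II promoters (-0.33, SE 0.15), and to Irf9, a subunit of the interferon-activated factor ISGF3 (0.33, SE 0.18). Ifnar2, a chain of the type I interferon receptor, had 0.43 (SE 0.18; limma adjusted p 0.592). Tpp2 (-0.27, SE 0.15) and Pdia3 (-0.24, SE 0.16) led the trimming and loading list and Pomp (-0.25, SE 0.12) the proteasome list. List medians in this comparison ran from -0.09 (trimming and loading) to 0.14 (interferon receptor and signalling genes), and that of all probes was -0.0031. The 1 class II gene tested, H2-DMb1, had -0.05 (SE 0.16).

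Between 72 h and 24 h in anti-miR-135b cells, 6 of these genes passed, in a comparison where 7.98% of all probes did. Among the class I-like chains 3 of 7 passed: H2-T23, which presents leader peptides to NK and T cell receptors, rose by 1.09 (SE 0.25; limma adjusted p 0.0135), H2-Q7 rose by 0.88 (SE 0.22; limma adjusted p 0.0233) and Cd1d1, which presents lipids, fell by 0.98 (SE 0.25; limma adjusted p 0.0227). H2-T23 had 11.64, 11.26 and 11.40 at 72 h and 10.63 and 10.06 at 24 h, and its other probe gave 0.72 (limma adjusted p 0.0668). H2-Q7 had 9.12, 8.93 and 9.06 at 72 h, against 8.15 and 8.17 at 24 h. The list thus held genes moving in opposite directions, with a median of 0.13 against 0.01 for all probes.

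Of the other lists, 1 of 9 trimming and loading genes passed, near the share of all probes. This was Tpp2, a cytosolic peptidase, which fell by 0.85 (SE 0.23; limma adjusted p 0.0321). In the proteasome list 4 of 8 were below 0 and 2 of 8 passed. Psmb7, the constitutive subunit that Psmb10 replaces, fell by 0.90 (SE 0.23; limma adjusted p 0.022), and Psme3, a nuclear proteasome activator, by 0.99 (SE 0.30; limma adjusted p 0.048). The other 2 Psmb7 probes gave -0.40 and -0.39 and did not pass. Psmb10 itself gave -0.03 (SE 0.44) in this comparison, and Psmb8 and Psmb9 gave 0.02 and 0.07. None of the 6 calls was kept without sample 12 at 24 h, where limma adjusted p-values were 0.203 to 0.623, and H2-T23 and Psmb7 each passed in 3 of the 5 fits that left out 1 sample. None of the 6 passed in limma between the inhibitor arms at 72 h, where their lowest unadjusted p was 0.0831. The arms overlapped for H2-T23 (-0.16, SE 0.22), H2-Q7 (-0.07, SE 0.20), Psmb7 (-0.10, SE 0.20) and Cd1d1 (-0.02, SE 0.22). They did not overlap for Psme3, with 10.19 to 10.50 under anti-miR-135b and 9.59 to 10.08 in controls (0.49, SE 0.27; limma adjusted p 0.734), nor for Tpp2, with 8.41 to 8.73 under anti-miR-135b and 8.82 to 9.04 in controls (-0.32, SE 0.21; limma adjusted p 0.773). Of all tested probes 8% were higher and 7.06% lower without overlap at 72 h, 15.1% in either direction.

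Several pairs of member genes shared variation within groups. After group means were taken off, the 36 pairs of brightest tested probes had a median Pearson correlation of 0.32 over 16 arrays (0.26 with group means kept), and 10 pairs were negative. H2-D1 correlated with B2m at 0.87, with Psmb10 at 0.78 and with Tap1 at 0.77, and B2m correlated with Psmb10 at 0.74. Tap1 and Psmb9, the facing neighbours, correlated at 0.73 within groups and at 0.14 with group means kept. Tap2 stood outside this set, at -0.36 with B2m, -0.33 with H2-D1 and 0.45 with H2-K1. The lowest value, -0.50, was between Psmb8 and Psmb9. These arrays share chips, and their depth of signal and RNA quality were not separated from the shared variation, so the correlations are given as a description. Taking off 6 group means left 10 residual degrees of freedom. Correlations between pairs of other tested probes were not computed, so whether a median of 0.32 is high for these arrays was not tested.

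**Figure D4:**
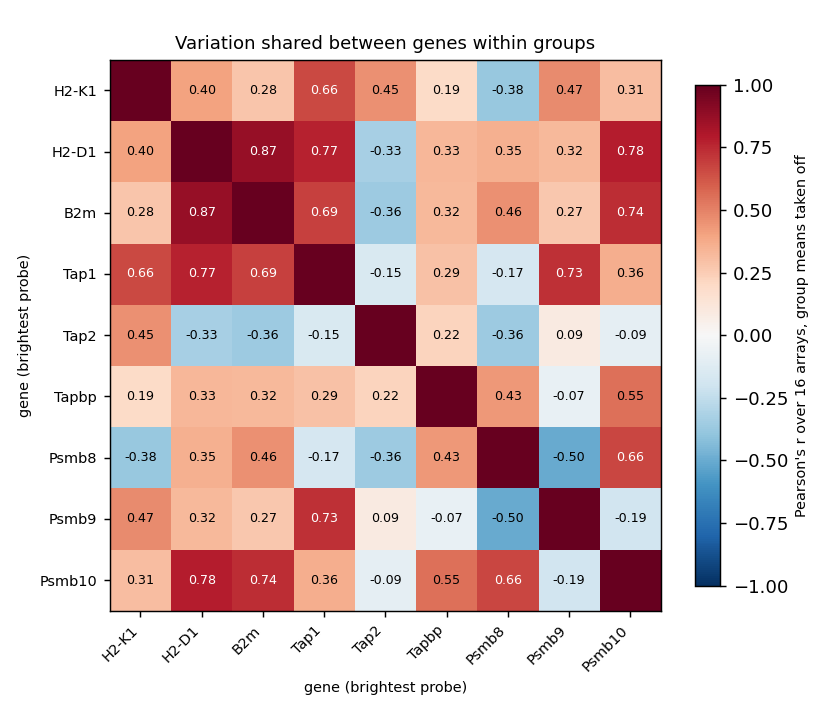
Pearson correlation over the 16 arrays, after group means were taken off, between the brightest tested probes of 9 member genes (both axes); red is positive and blue negative, with the value in each cell. H2-D1, B2m, Psmb10 and Tap1 form most of the high cells (0.87 for H2-D1 and B2m), and Tap2 is negative with H2-D1 and B2m.

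The mean of the 9 tested genes in each array ran from 8.19 to 8.78 under anti-miR-135b at 48 h, against 8.06 to 8.51 in controls, and from 8.39 to 8.78 at 72 h, against 8.30 to 8.71. The lowest array of each arm at 48 h was sample 13 for anti-miR-135b and sample 4 for controls. Among 11868 probes of other named genes, those most like this mean over the 16 arrays were H2-Q5 (r = 0.87), a class I-like chain, then Sirt7 (0.84), Sbk1 (0.84), Cd14 (0.84), Ifi202b (0.82), Dapk2 (0.82), Capg (0.81), Phc2 (0.81), Zc2hc1a (0.81) and Csf2 (0.80). Within groups the correlations of these 10 were 0.76 (Capg) to 0.93 (Ifi202b). Inhibitor differences of these 10 ran from -0.16 (Zc2hc1a) to 0.87 (Ifi202b, an interferon-inducible gene) at 48 h. At 72 h they ran from -0.08 (Sbk1) to 0.50 (Dapk2). H2-Q5 had 0.61 at 48 h and 0.30 at 72 h, Ifi202b 0.87 and 0.22, Sirt7 0.08 and 0.04, and Csf2 -0.06 and -0.06.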

How the data were processed

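RNA of 16 TUBO samples in 6 groups of inhibitor and time was measured on Illumina bead arrays. The deposited intensities are bead averages made with GenomeStudio, per the submitters' processing notes, which name no version. All are above 0, and array medians differ, as in values without normalisation between arrays. A second table deposited by the authors gives log2 values of the same arrays after a normalisation not given in the sources used here. It served as an alternative only: each column ordered probes as its array did (Spearman's rho of at least 0.999), while its centring is unknown.

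Intensities were background corrected with limma 3.58.1 (R 4.3.3) by normexp with an offset of 50, quantile normalised and taken to log2. Normexp widens and the offset narrows differences of dim probes. Probes with a mean above the median of all probes were kept (12848 probes, 9032 genes). Each was fitted with lmFit and eBayes, 1 mean per group (10 residual and 7.8 prior degrees of freedom), and p-values were adjusted by Benjamini-Hochberg over all kept probes within a comparison (threshold 0.05). Signal over background and the number of arrays, 2 or 3 a group, limit the precision. Gene names came from the platform annotation, which gives 1 symbol for 23978 probes, several for 0 and none for 1719. All probes of the members are named. Of each related list at most 4 genes are named, those with the smallest p in the mean of 48 h and 72 h, and any past the threshold. Likeness took the 10 genes with the highest correlation. The members and lists were chosen with earlier results of these data known. The steps were tested on simulated data. Alternatives covered background, offset, scaling, filters, values, array weights, samples fitted, label numbers and leaving out samples.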

Additional observations from a re-analysis of the deposited data

How the results depend on the processing

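Under 9 other settings, and with any 1 sample left out, 0 member probes were called in the inhibitor comparisons at 24, 48 and 72 h, in the mean of 48 and 72 h and in the change between 72 h and 48 h, and under 8 in control cells. The lowest limma adjusted p of a member in the inhibitor comparisons was 0.158 under those settings. The 1 member call, the second Tapbp probe between 72 h and 24 h, was lost (0 called) with an offset of 16 (adjusted p 0.054), scaling to a common median (0.0642), no filter (0.0615) or a stricter filter that left that probe untested, and in every fit without 1 sample (0 to 0 called). It passed with no background correction (0.0472), array weights (0.0174), the authors' value table (0.0392) and the groups compared alone (0.0297), in limma throughout.

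Tested members changed sign in 11 cases, and the untested Nlrc5 probe at 72 h gave 0.0090 under median scaling. Scaling to a common median put the median of all probes at -0.27 at 48 h, 0.08 at 72 h, 0.12 at 24 h, 0.37 in the change from 48 to 72 h and 0.32 in control cells. It gave -0.067 for H2-K1, -0.44 for B2m, -0.29 for Tap2 and -0.0086 for Psmb10 at 48 h, 0.014 for Psmb9 at 72 h, -0.043 for Tap2 in the mean, and 0.19 for B2m and 0.071 for Tapbp at 24 h. Relative to the shifted median, B2m (-0.16) and Tap2 (-0.01) at 48 h still turned, and so did B2m (0.07) and Psmb8 (-0.06) at 24 h. Psmb9 at 72 h was 0.0082 with an offset of 16 and 0.20 with array weights, and Tapbp at 24 h was 0.26 as the mean of its probes. Leaving out 1 sample gave both signs, among tested members, at 48 h for H2-D1 (-0.094 to 0.46), B2m (-0.12 to 0.75), Tap2 (-0.064 to 0.33) and Psmb8 (-0.035 to 0.25), at 72 h for H2-K1 (-0.052 to 0.20), B2m (-0.057 to 0.45), Tap2 (-0.10 to 0.30), Psmb9 (-0.32 to 0.14) and Psmb10 (-0.20 to 0.60), in the mean for Tap2 (-0.014 to 0.19), and at 24 h for H2-K1 (-0.064 to 0.21), B2m (-0.16 to 0.12), Tapbp (-0.35 to 0.16), Psmb8 (-0.074 to 0.17) and Psmb10 (-0.22 to 0.30), and for the untested Nlrc5 probe at 72 h (-0.15 to 0.14). The cause was not tested. Tap1 kept its sign in every alternative run of the inhibitor comparisons, with 0.19 to 0.46 in the mean of 48 and 72 h and 0.24 to 0.64 at 72 h.

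Over all probes, the 1025 calls between 72 h and 24 h under anti-miR-135b (540 higher, 485 lower) became 377 with median scaling, 2178 with array weights and 25 to 677 without 1 sample. The 119 in control cells (63 higher, 56 lower) became 1267 (1243 higher, 24 lower) with median scaling, 17 with the groups compared alone, 352 with array weights and 19 to 119 without 1 sample. In the inhibitor comparisons, 2 probes passed at 72 h with no background correction, in the authors' value table and with array weights, 8 in the mean with array weights, and up to 6 without anti-miR-135b sample 14 at 48 h. The related genes' calls were rechecked under the same settings, an alternative chosen after seeing the data: each passed in 5 to 7 of the 7 or 8 settings that tested it and in 0 to 3 of 5 fits without 1 sample.

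The groups share no label number, but each control number plus 9 gives an anti-miR-135b number. Deviations from the group means correlated within such pairs at 0.56, 0.08 and 0.50 at 48 h and at 0.48, 0.15 and 0.35 at 72 h, and 4 of these 6 samples correlated best with their own number. A replicate block by this number called 13 probes at 48 h, 58 at 72 h, 100 in the mean and 12 at 24 h, none of them members, and for Tap1 in the mean limma then gave an adjusted p of 0.239. Chip as a random block could not be fitted, because each group lies on 1 chip.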
